A study of Homo sapiens with 8 samples.

Results

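The genes described here were compared for their marks by a pair of RNA editors in control cells: an editor that changes adenosine to inosine (A-to-I) and an editor that changes cytidine to uridine (C-to-U). Members were chosen by their read depth: the genes listed in both deposited editing tables of the knockdown experiment with at least 200 reads in each siNC library in each table. This gave 7364 of the 10476 genes that both tables list, out of 59414 genes in the counts. A gene's editing score is its edited reads over its reads, given as a percentage. Of the 7364 members, 82 carried mainly A-to-I, 268 mainly C-to-U, and 2613 both marks with a smaller preference for either editor.

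All libraries came from HEK293T, a widely used human cell line of embryonic kidney origin. The cells carried PB-TRIBE-STAMP, an RNA editor system aimed at processing bodies (P-bodies). The 8 libraries form 4 groups of 2: cells treated with an siRNA to EDC4 (siEDC4), cells given a control siRNA (siNC), P-bodies sorted from cells (Sorted-Pbodies) and cytosol (Cytosol). The labels give polyA RNA for siEDC4 and siNC, total RNA for Sorted-Pbodies and cytoplasmic RNA for Cytosol, with library inputs of 500, 500, 50 and 100 ng. All 4 groups carry the editors and no library without them was analysed, so base variants and editing by other enzymes cannot be told apart from the editors' marks. Which proteins carry the deaminases, and whether the cells are a clone or a pool, the sources used here do not give.

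P-bodies are cytoplasmic granules that hold the mRNA decapping and translational repression machinery together with stored mRNA. In TRIBE a deaminase domain of the ADAR family, which acts on adenosines in and near double-stranded RNA, marks RNA that a fused protein meets. In STAMP an APOBEC deaminase marks cytidines in single-stranded RNA, so the editors act on different bases and RNA shapes. Whether the same protein carries both editors here is unknown, so a difference of base or RNA shape and a difference of carrier protein cannot be told apart.

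Reads summed over the genes listed lay between 5767764 and 6294767 per siNC library and table. The siNC libraries' reads per gene agreed about as closely as counting allows (a chi-square of 1.02 for each degree of freedom in either table), against 3.46 and 3.47 for siEDC4. Their edited reads differed by somewhat more, at 1.30 for A-to-I and 1.31 for C-to-U. The 2 libraries were counted as 1 sample, with each library's value shown and exact 95% binomial intervals on the summed reads. The intervals cover counting error only, so they are somewhat too narrow for the edited reads. The libraries are bulk RNA, in which fewer cells with a mark and fewer marked copies per cell cannot be told apart. Of 6 markers of HEK293T-like cells, 5 were listed (1757 and 1598 summed reads in siNC 1 and 2). Of 5 fibroblast markers, COL1A1 alone was listed, with 308 and 296 reads. None of 5 markers of epithelial tumour lines was listed. In Cytosol, where counts of unlisted markers are given, PTPRC, a marker of blood cells, had 4 and 1, and CDH1 had 488 and 417. Fibroblast markers summed to 685 and 762 there, against 3447 and 3559 for HEK293T-like markers. COL1A1 had 477 and 517, COL3A1 136 and 132, LUM 66 and 106, DCN 4 and 7, and COL1A2 2 and 0. No label ties the libraries of a group to separate cultures. The p-values therefore reflect how far these samples spread, and that spread may be technical. With 2 libraries in each group, the tests estimate that spread largely across genes rather than from each gene alone.

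The typical member carried less A-to-I than C-to-U. The median A-to-I score was 1.19% and the median C-to-U score 1.88%, with the siNC libraries summed. Summed scores ran from 0 to 20.3% for A-to-I and from 0 to 13.5% for C-to-U. The preference, log2 of the A-to-I score over the C-to-U score with 0.5 percentage points added to each, had a median of -0.46. Its lower 5% of genes lay under -2.06 and its upper 5% over 1.05. It was above 0 in 2145 genes and below 0 in 5174. At this depth the counting intervals of the scores overlapped in 5174 genes. They lay apart with A-to-I higher in 421 genes and with C-to-U higher in 1769.

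A gene was called marked by an editor where its score reached 1% in each siNC library, which is 2 edited reads at the lowest depth admitted. A-to-I marked 3324 genes (45.1%), C-to-U marked 4739 (64.4%) and both editors marked 2700. A-to-I alone marked 624 genes and C-to-U alone 2039. A gene's class was mainly A-to-I or mainly C-to-U where it carried that mark and its preference reached 2 in size in each library. That is a 4-fold ratio after 0.5 percentage points are added to each score, so the ratio of the scores themselves is larger. Both marks means marked by each editor with a smaller preference in each library. These rules put 1.11% of the members in mainly A-to-I, 35.5% in both marks and 3.64% in mainly C-to-U. The single-editor classes held more genes on 1 library: 142 mainly A-to-I and 529 mainly C-to-U without siNC 1, and 137 and 545 without siNC 2. A preference threshold of 1 gave 246 and 1223. A further 2001 genes (27.2%) were marked by neither editor. The remaining 2400 (32.6%) fell between the classes, and 1783 of these carried the C-to-U mark alone and 549 the A-to-I mark alone. The classes are cut from these siNC values, so the siNC values of each class are a description with no test.

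**Figure D1:**
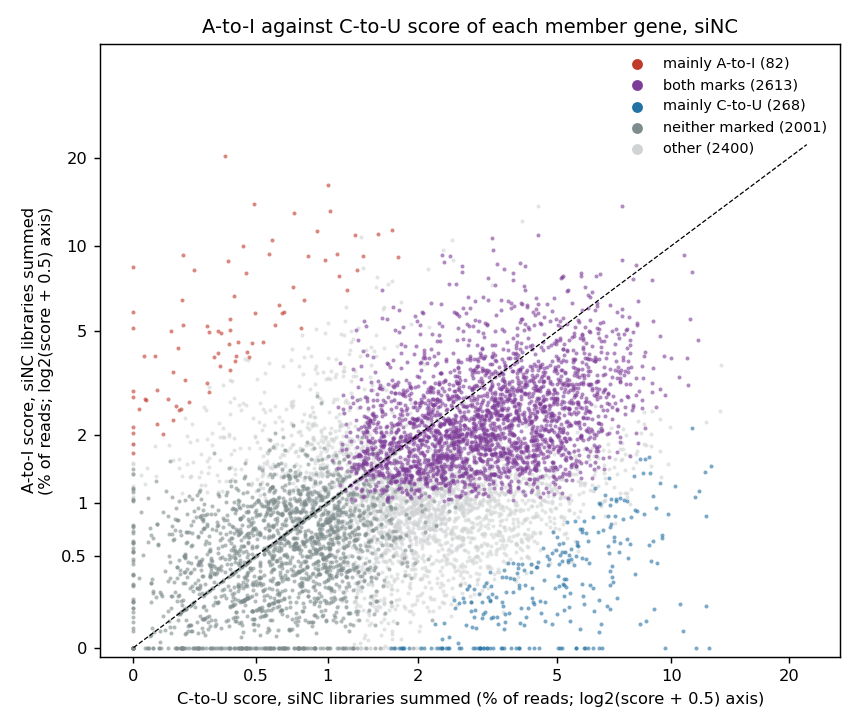
Each point is 1 of the 7364 members, with its A-to-I score on the vertical axis and its C-to-U score on the horizontal axis (percent of reads, siNC libraries summed, log2 axes after adding 0.5); colours give the classes and the dashed line marks equal scores. Most points lie in 1 cloud below the line, and the 82 mainly A-to-I and 268 mainly C-to-U genes are the edges of that cloud rather than separate groups.

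Across the members, genes with more of the A-to-I mark tended to have more of the C-to-U mark. The rank correlation of the summed scores was 0.45 over 7364 genes. It was 0.37 with the G+C content of the transcript held fixed and 0.44 with gene Length held fixed. The points share libraries, read depth and base composition, so this is a description across genes. Between siNC 1 and siNC 2 the rank correlation was 0.73 for A-to-I, 0.82 for C-to-U and 0.59 for the preference. A single gene's preference was therefore less repeatable than either score. The edges of the classes move with their thresholds: 103 genes stood up to 0.5 below the preference threshold of mainly A-to-I, with the libraries summed. At the read threshold, 16 members had exactly 200 reads in their lowest siNC value, among them ATOX1, a copper chaperone, with summed scores of 0 for A-to-I and 0.895% for C-to-U. CFAP44, a cilium and flagellum protein, also stood there, with 0.690% and 0. Just outside, 1 read short, were 17 genes, including CAMKK1, a calmodulin-dependent kinase kinase, at 0 and 1.75%, and CD9, a tetraspanin, at 0.245% and 5.35%.

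The 10 mainly A-to-I genes with the highest A-to-I scores had between 10.3% and 21.04% A-to-I in each library. ATP5MPL, a small subunit associated with mitochondrial ATP synthase (chromosome 14, 103912288 to 103928269, minus strand, hg38), had A-to-I scores of 19.61% and 21.04% in siNC 1 and 2, against C-to-U scores of 0.490% and 0.179%. MRPS9, a protein of the small mitochondrial ribosomal subunit (chromosome 2, 105038069 to 105099960), had 17.2% and 14.7% A-to-I, against 0.867% and 1.20% C-to-U. Both genes were far apart in the editors and close between libraries. CCDC12, a spliceosome-associated protein, had 14.7% and 13.2% A-to-I, against 0.488% C-to-U in each library. OSGEP, the catalytic subunit of the KEOPS complex that modifies tRNA, had 13.1% and 13.0% A-to-I, against 0.493% and 0.990% C-to-U. In MRI1, a methionine salvage isomerase, A-to-I was 14.1% and 12.3% and C-to-U was 1.63% and 0.380%. The counting interval of A-to-I lay above that of C-to-U in all 82 genes of the class, and in 421 of all 7364 members. The class was cut from these same scores, so this largely follows from its rule.

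RPS27, a protein of the small cytosolic ribosomal subunit (chromosome 1, 153990762 to 153992155), rested on the most reads of the 10 highest genes, 4477 over both libraries. Its A-to-I scores were 10.3% and 11.5%, against C-to-U scores of 1.22% and 1.29%. The other members of the 10 were TPD52L2 of the D52 family, XRCC2 of homologous recombination, PLCXD1, a phospholipase-like protein, and EPHX1, the microsomal epoxide hydrolase. Their A-to-I scores lay between 10.4% and 11.8% in each library, and their C-to-U scores between 0.336% and 1.78%. PLCXD1 lies in a pseudoautosomal region and ribosomal protein genes have many processed copies, so both are uncertain where reads match more than 1 place. The class as a whole had median scores of 5.04% for A-to-I and 0.348% for C-to-U, and 7 of its 82 genes also carried the C-to-U mark.

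The genes with both marks had a median A-to-I score of 2.19% and a median C-to-U score of 3.14%. In 1920 of the 2613 the counting intervals of the editors overlapped, against 5174 of all 7364 members. In the other 693 they lay apart, so the class also holds genes with a lean that stayed under the preference threshold. The 10 genes in which the lower of both scores was highest were ATP6V0E2, KLHL15, LYSMD3, ZNF367, TMEM230, ZFP1, CXorf56, PRRC1, TSPAN17 and AKIRIN1. ATP6V0E2, a subunit of the vacuolar proton pump (chromosome 7, 149872968 to 149891204), had 8.80% and 9.87% A-to-I, against 10.6% and 11.0% C-to-U. KLHL15, a substrate adaptor of cullin ubiquitin ligases (chromosome X, 23983720 to 24027186), had 7.88% and 8.44% A-to-I, against 11.4% and 11.2% C-to-U. In both genes the C-to-U score was the higher in each library. In CXorf56, which acts in trafficking of the innate immune protein STING, the order was the other way, with 10.8% and 16.7% A-to-I against 6.27% and 8.70% C-to-U. In LYSMD3, a membrane protein with a LysM domain, the scores were nearly equal, at 9.36% and 7.77% A-to-I against 9.09% and 6.98% C-to-U. ZNF367, a zinc finger transcription factor, showed how far a score can move between the libraries at modest depth (870 and 878 reads over both libraries). Its A-to-I score was 5.40% in siNC 1 and 10.3% in siNC 2, against C-to-U scores of 7.46% and 8.56%.

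The 10 mainly C-to-U genes with the highest C-to-U scores had between 9.92% and 14.5% C-to-U in each library. CD99, a surface glycoprotein (chromosome X, 2691187 to 2741309), had 0 A-to-I edited reads of 1625, which allows a score of up to 0.185%, against C-to-U scores of 13.6% and 11.3%. B2M, the light chain of MHC class I (chromosome 15, 44711487 to 44718851), had 0 of 1477 reads, allowing up to 0.203%, against 12.4% and 10.6%. TPP1, a lysosomal peptidase, had A-to-I scores of 0.135% and 0, against C-to-U scores of 10.9% and 10.5%. In these 3 genes 1 edited read in all was seen for A-to-I. The limits given for 0 reads stand for 3 edited reads over the reads, and the exact 95% intervals of CD99 and B2M reach higher, to 0.227% and 0.249%. SRP9, a protein of the signal recognition particle (chromosome 1, 225777813 to 225790468), was the most deeply read of the 10. It had 0.724% and 0.980% A-to-I, against 12.5% and 12.0% C-to-U, on 5759 and 5842 reads. SDCBP, the adaptor syntenin, had 0.243% and 0.128%, against 12.6% and 12.1%. CD99 also lies in a pseudoautosomal region and is uncertain in the same way as PLCXD1.

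The other 5 of the 10 had more A-to-I, from 1.06% to 2.14% with the libraries summed, against 0.851% in SRP9. COQ7, an enzyme of ubiquinone synthesis, had 1.177% and 1.83% A-to-I, against 12.0% and 13.4% C-to-U. HIGD1A, a mitochondrial inner membrane protein, had 1.81% and 0.352%, against 12.5% and 11.0%. ARL6IP1, which shapes the endoplasmic reticulum, and HMGA2, an architectural chromatin protein, had A-to-I scores from 0.990% to 2.25%, against C-to-U scores from 10.6% to 11.9%. TPD52 had 1.21% and 1.57% A-to-I, against 9.92% and 14.5% C-to-U. TPD52 and TPD52L2 belong to the same D52 family and stood in opposite classes. TPD52L2 had 11.0% and 11.6% A-to-I, against 1.78% and 1.53% C-to-U. The class of 268 genes had median scores of 0.288% for A-to-I and 5.02% for C-to-U. The C-to-U interval lay above that of A-to-I in 267 of them, and in 1769 of all 7364 members, which again largely follows from the rule. Of the 268 genes, 12 also carried the A-to-I mark.

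**Figure D2:**
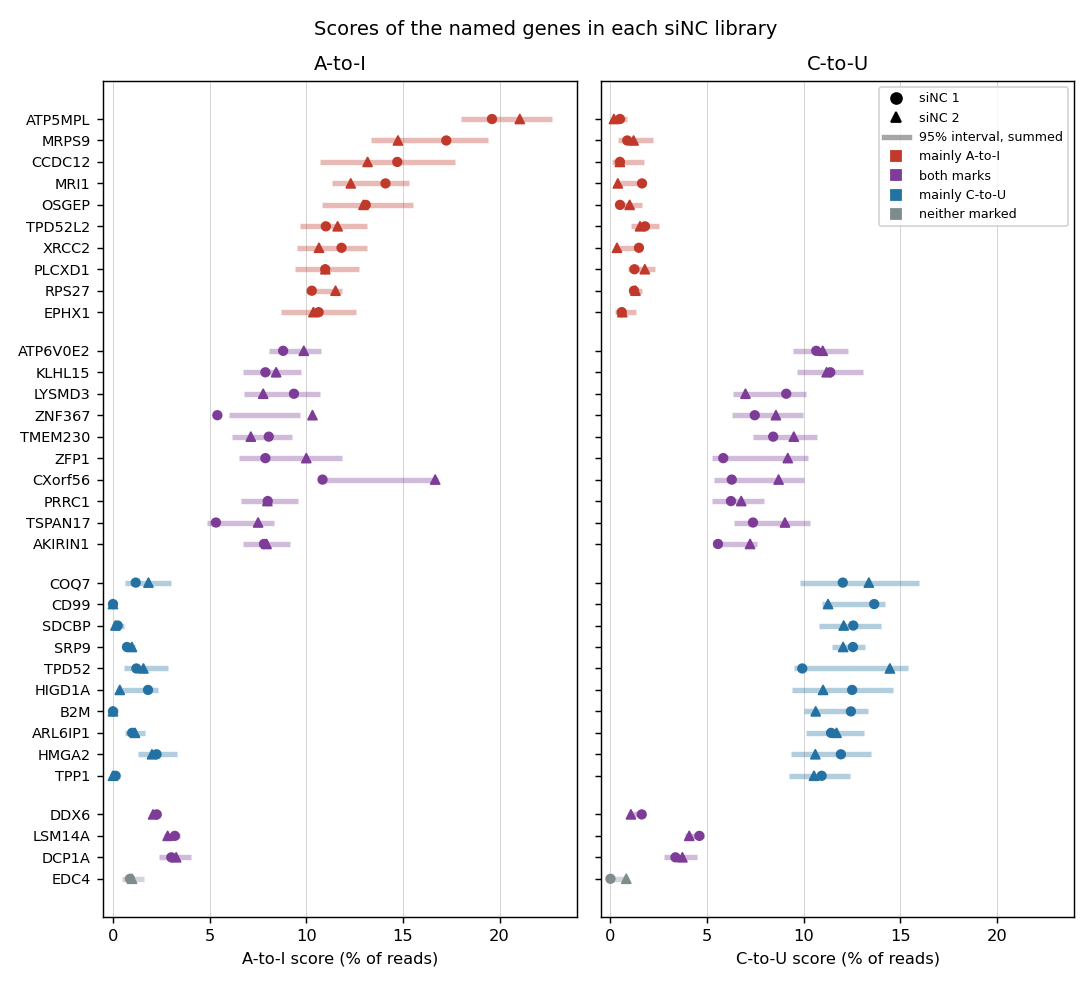
The A-to-I score (left) and the C-to-U score (right) of the 10 highest genes of each class and of 4 P-body genes, in percent of reads, with circles for siNC 1, triangles for siNC 2 and pale bars for the exact 95% interval of the summed reads. ATP5MPL stands at 19.61% and 21.04% for A-to-I with C-to-U under 0.5%, CD99 and B2M stand at 0 for A-to-I, and the middle block is high for both.

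Of 29 genes for P-body components, 26 were members and 15 of these carried both marks (57.7%, against 35.5% of all members). None was in a class with mainly 1 editor. Those classes hold 1.11% (mainly A-to-I) and 3.64% (mainly C-to-U) of all members, so 0 of 26 is near the general share. The median scores of the 26 were 1.73% for A-to-I and 2.47% for C-to-U. DDX6, the RNA helicase that P-bodies are built around, had 2.27% and 2.07% A-to-I, against 1.62% and 1.06% C-to-U. LSM14A, a translational repressor that binds DDX6, had 3.20% and 2.83% A-to-I, against 4.60% and 4.07% C-to-U. DCP1A, a cofactor of decapping, had 3.02% and 3.27%, against 3.36% and 3.72%. DCP2, the decapping enzyme, had 4.57% and 5.16%, the highest A-to-I scores of the list, against 5.68% and 5.995% C-to-U. EDC4, the decapping scaffold that siEDC4 targets, was marked by neither editor in siNC, with 0.877% and 0.985% A-to-I, against 0 and 0.816% C-to-U. XRN1, TNRC6A, AGO2 and PATL1 also carried both marks, while UPF1 and MOV10 carried neither. DCP2, XRN1, TNRC6A, AGO2, PATL1, UPF1 and MOV10 were named after their values were seen.

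Gene lists differed in how their members spread over the classes. Of all members, 1.11% were in mainly A-to-I, 35.5% in both marks, 3.64% in mainly C-to-U and 27.2% in neither. Cytosolic ribosomal proteins, with 73 of 79 listed genes as members, had 19 in mainly A-to-I (26.0%, against 1.11%), 15 in both marks, 3 in mainly C-to-U and 14 in neither. They made up 19 of the 82 mainly A-to-I genes. Their median scores were 2.54% for A-to-I and 0.976% for C-to-U, a median preference of 1.33 against -0.46 for all members. RPS14 of the small subunit had 9.04% and 8.68% A-to-I, against 0.312% and 0.402% C-to-U. RPL35 of the large subunit had 5.40% and 4.87% A-to-I and no C-to-U edited read. RPL30, also of the large subunit, was the reverse, with no A-to-I edited read and C-to-U scores of 4.503% and 1.82%. Translation factors had 4 of 35 members in mainly A-to-I, EEF2, EEF1D, EIF3D and EIF3K, and none in mainly C-to-U. These genes were named because they were the list members in the class, after their values were seen.

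Secretory and endoplasmic reticulum genes leaned the other way, with 35 of 36 as members, 1 in mainly A-to-I, 9 in both marks and 9 in mainly C-to-U (25.7%, against 3.64%). Their median scores were 0.475% for A-to-I and 2.57% for C-to-U, and the median preference was -1.03. CANX, the lectin chaperone calnexin, had 0.213% and 0.516% A-to-I, against 5.04% and 5.01% C-to-U. HSP90B1, the endoplasmic reticulum form of HSP90, had 0.281% and 0.130%, against 4.57% and 4.70%. P4HB, a protein disulfide isomerase, had 0.487% and 0.461%, against 5.27% and 5.45%. SSR2, of the translocon-associated complex, was the exception in mainly A-to-I, with 3.31% and 3.27% A-to-I against 0 and 0.354% C-to-U. All 4 were named after their values were seen.

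Nuclear-encoded oxidative phosphorylation genes were mostly marked by neither editor, with 34 of 58 members there (58.6%, against 27.2%), 1 in mainly A-to-I, 6 in both marks and 6 in mainly C-to-U. Their medians were 0.202% for A-to-I and 0.592% for C-to-U. The lists of regulatory genes stood mainly in both marks. Ubiquitin ligases and deubiquitinases had 28 of 48 members there (58.3%), chromatin modifiers 30 of 60 (50.0%) and zinc finger genes named ZNF 62 of 110 (56.4%). Together these lists had 1 gene in mainly A-to-I, ZNF587, and none in mainly C-to-U, against 1.11% and 3.64% of all members. Cell cycle and mitosis genes had 14 of 41 members in both marks (34.1%), close to the 35.5% of all members. The median Length was 3252 bases for ribosomal protein genes and 2316 for oxidative phosphorylation genes, against 9996.5 for ubiquitin genes and 12073 for chromatin modifiers, so the lists also differ in the measure described next.

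Length in the counts is the summed exonic length of a gene in bases, in an annotation that is unknown from the sources used here. The shortest genes had the lowest median score for both editors and held the most genes with mainly 1 editor. The members were divided into 5 groups of equal size by Length, with medians of 2700, 4435, 6030.5, 8094 and 12249 bases. Over these the median A-to-I score was 0.760%, 1.16%, 1.34%, 1.35% and 1.35%, and the median C-to-U score was 1.30%, 1.99%, 2.16%, 2.06% and 1.94%. From the middle group on the A-to-I median varied little, and the C-to-U median was highest in the middle group. Genes with both marks made up 15.3% of the shortest members and 45.4% of the longest. Mainly A-to-I genes numbered 35, 26, 11, 6 and 4 from the shortest to the longest, and mainly C-to-U genes 108, 70, 36, 28 and 26. The median Length was 3861.5 bases in mainly A-to-I, 6972 in both marks and 4170.5 in mainly C-to-U, against 6030.5 in all members. The share marked by neither editor was 40.9% in the shortest genes and 22.5% in the longest.

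**Figure D3:**
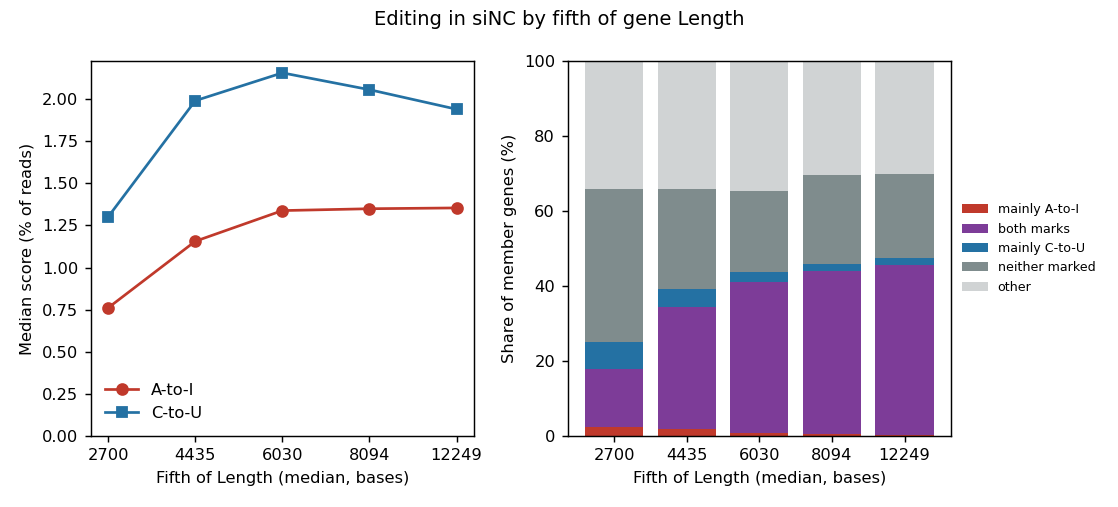
Left, the median A-to-I and C-to-U score (percent of reads) of the members in 5 equal groups by Length; right, the share of each class, with the median Length of each group in bases on the horizontal axes. The scores are lowest in the shortest genes, at 0.760% for A-to-I and 1.30% for C-to-U, and the share with both marks is 15.3% there and 45.4% in the longest.

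Taken alone, Length went with how much a gene was marked more than with which editor marked it. Its rank correlation was 0.20 with the A-to-I score, 0.12 with the C-to-U score and 0.06 with the preference, over 7364 genes that share libraries and depth. The length of 1 representative transcript per gene in GENCODE v29 gave 0.34, 0.26 and 0.04 over 7363 genes. Among its parts, the 3' UTR length gave 0.31 with A-to-I and 0.38 with C-to-U, and the coding length 0.15 and -0.02. The preference ran with the coding length at 0.16 and with the 3' UTR length at -0.10. Read depth moved with these values. With the members in 5 equal groups by reads, the group with the fewest (median 510) gave a correlation with Length of -0.04 for A-to-I and -0.13 for C-to-U. The next to deepest group (median 1466 reads) gave 0.35 and 0.28. With reads held fixed over all members, Length gave 0.20 with A-to-I, 0.13 with C-to-U and 0.05 with the preference. With the 3' UTR length held fixed it gave 0.08 with A-to-I, -0.03 with C-to-U and 0.11 with the preference.

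The longest and shortest members show the spread within these trends. NFIA, a nuclear factor I transcription factor with a Length of 55886 bases, was marked by neither editor, with 0.312% and 0.617% A-to-I against 0.621% and 0.623% C-to-U. DST, the cytoskeletal linker dystonin at 48142 bases, carried both marks, with 1.47% and 1.22% against 1.47% and 1.87%. SYNE1, the giant nesprin at 46686 bases, had 1.49% and 1.52% A-to-I, against 0.896% and 0.612% C-to-U. The 3 shortest members, the respiratory chain genes NDUFA1 (421 bases) and COX8A (494) and the histone gene H2BC12 (495), were marked by neither editor. NDUFA1 and COX8A have longer representative transcripts in GENCODE v29 (766 and 507 bases), so Length does not follow that annotation. NDUFA1 had 0 A-to-I edited reads of 1501, which allows up to 0.200% (0.245% by the exact interval), against C-to-U scores of 0.489% and 0.441%. H2BC12 belongs to a family of near-identical histone genes, so its values are uncertain.

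Base composition went with the preference more than Length did. Mainly A-to-I genes had a median transcript G+C content of 54.8%, genes with both marks 43.9% and mainly C-to-U genes 45.0%, against 48.0% in all members. Genes marked by neither editor had 54.6%. The rank correlation of G+C content was -0.28 with the A-to-I score, -0.50 with the C-to-U score and 0.26 with the preference (7363 genes). In 5 equal groups from the lowest G+C (median 38.7%) to the highest (61.4%), the median A-to-I score was 1.67%, 1.38%, 1.24%, 1.02% and 0.834%. The median C-to-U score was 3.47%, 2.59%, 1.84%, 1.36% and 1.05%. The C-to-U score was thus over 3 times higher at the lowest G+C content than at the highest, and the A-to-I score about 2 times. Genes with both marks made up 57.6% of the members at the lowest G+C content and 14.3% at the highest. Mainly A-to-I genes numbered 1, 6, 15, 35 and 25 over the same order, and mainly C-to-U genes 68, 72, 50, 45 and 33.

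**Figure D4:**
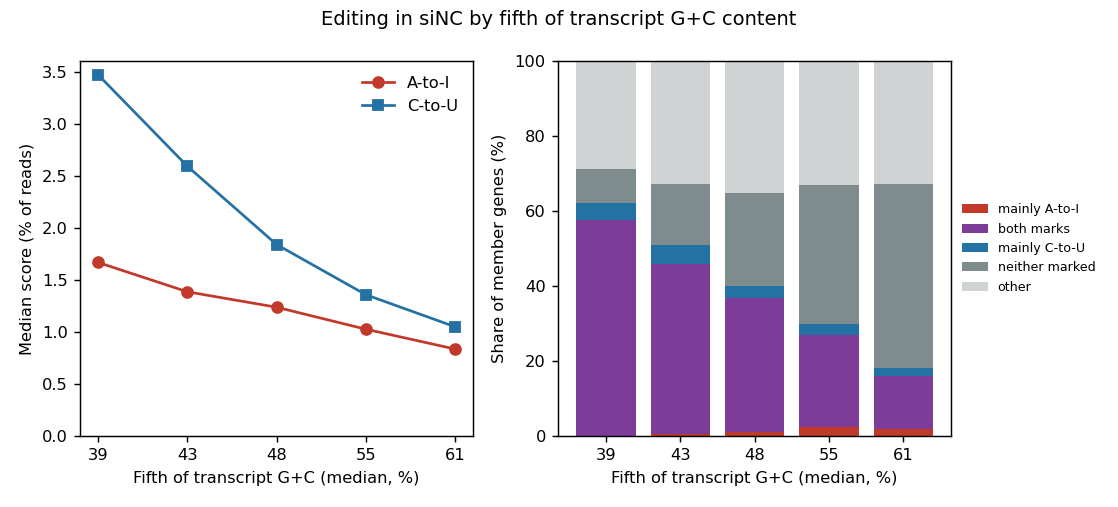
Left, the median A-to-I and C-to-U score (percent of reads) of the members in 5 equal groups by transcript G+C content; right, the share of each class, with the median G+C content (percent) on the horizontal axes. C-to-U is 3.47% in the lowest and 1.05% in the highest group, A-to-I 1.67% and 0.834%, and the space between the lines narrows.

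Length and G+C content were themselves related (rank correlation -0.22), and so were G+C content and 3' UTR length (-0.42). With G+C content held fixed, the correlation of Length was 0.14 with A-to-I, 0.01 with C-to-U and 0.12 with the preference. The relation of Length to the C-to-U score changed sign over the G+C range. It was -0.16 in the group of lowest G+C content, 0.01 in the middle and 0.20 in the highest. For A-to-I it was 0.06 in the lowest and 0.17 in the highest. The 3' UTR length kept 0.22 with each score when G+C content was held fixed.

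The siEDC4 libraries, which had no part in choosing the classes, were used to ask whether the preferences held in other libraries of the same experiment. EDC4 itself had 245 and 186 reads in siEDC4 1 and 2, against 684 and 609 in siNC 1 and 2 (A-to-I table). The preferences held in most genes of both single-editor classes. Edited reads of the editors were compared within each library by edgeR's quasi-likelihood test, relative to the typical gene and with Benjamini-Hochberg adjustment over 7811 genes. Of all tested genes, 11.1% leaned to A-to-I and 13.1% to C-to-U at an adjusted p under 0.05. Of the 82 mainly A-to-I genes, 81 leaned to A-to-I and 0 to C-to-U. Of the 268 mainly C-to-U genes, 264 could be tested, and 234 leaned to C-to-U and 0 to A-to-I. Of the genes with both marks, 316 of 2608 tested leaned to A-to-I (12.1%) and 171 to C-to-U (6.56%). The counts of 0 were also 0 at an unadjusted p under 0.05 and with DESeq2, which called 59 mainly A-to-I and 78 mainly C-to-U genes in the direction of their class (against 4.68% and 3.34% of all genes it gave an adjusted p). Median scores in siEDC4 were 5.41% A-to-I and 0.591% C-to-U in the mainly A-to-I class, against 0.573% and 5.25% in the mainly C-to-U class. The full rule for a class was met in siEDC4 by 53 of the 82, 124 of the 268 and 2161 of the 2613 genes with both marks. No gene crossed from mainly A-to-I to mainly C-to-U or back. The preference in siEDC4 had a rank correlation of 0.71 with that in siNC over the members.

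The highest genes of the single-editor classes kept their lean in siEDC4, while some of their scores moved. With libraries summed, the C-to-U score fell from 12.2% in siNC to 8.33% in siEDC4 for TPD52. It fell from 11.3% to 8.43% for HMGA2 and rose from 10.7% to 14.5% for TPP1. These differences were not tested, and the genes were chosen for high siNC scores. In TPD52 the siNC libraries themselves stood at 9.92% and 14.5%. ATP5MPL had 20.9% and 23.3% A-to-I in siEDC4 1 and 2, against 0.399% and 0.952% C-to-U, a log2 ratio of 5.45 ± 0.38 relative to the typical gene (SE, adjusted p = 8.8e-43, edgeR). SRP9 had 0.418% and 0.868% A-to-I, against 14.2% and 13.3% C-to-U, a log2 ratio of -3.97 ± 0.29 (adjusted p = 2.6e-39, edgeR). TPD52L2 had a log2 ratio of 3.09 ± 0.31 and its relative TPD52 -1.65 ± 0.51 (adjusted p = 1.7e-21 and 0.0085, edgeR). The 10 highest mainly A-to-I genes all leaned to A-to-I and the 10 highest mainly C-to-U genes all leaned to C-to-U. The weakest of these 20 was HMGA2, at -0.93 ± 0.34 (adjusted p = 0.029, edgeR). Of the 10 highest genes with both marks, CXorf56 and PRRC1 leaned to A-to-I (1.15 ± 0.35 and 0.70 ± 0.25; adjusted p = 0.0063 and 0.026, edgeR) and the other 8 did not pass. Of the cytosolic ribosomal protein genes, 55 of 72 tested leaned to A-to-I and 11 to C-to-U. For the secretory genes it was 4 and 16 of 33, against 11.1% to A-to-I and 13.1% to C-to-U of all tested genes. The ribosomal share to C-to-U and the secretory share to A-to-I were thus near those of all genes.

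The Cytosol libraries come from a different experiment, with other tables and the opposite overall order of the editors. Over all members the median scores there were 2.95% A-to-I and 0.441% C-to-U. Relative to the typical gene, 26.4% of 9931 tested genes leaned to A-to-I and 16.1% to C-to-U (edgeR, adjusted p under 0.05). Of the 82 mainly A-to-I genes, 76 were listed in both Cytosol tables and 69 tested, and 61 of these leaned to A-to-I. The ribosomal protein gene RPL13A, named after its values were seen, was the 1 that leaned to C-to-U, although it had 3.98% and 4.33% A-to-I against 0.273% and 0.345% C-to-U in siNC. Of the 268 mainly C-to-U genes, 265 were listed and 234 tested, and 86 leaned to C-to-U and 43 to A-to-I. On the scores themselves, with no reference to the typical gene, 66 of the mainly A-to-I genes leaned to A-to-I and 14 of the mainly C-to-U genes to C-to-U. Of all tested genes, 68.6% leaned to A-to-I and 0.665% to C-to-U on that scale. The median scores of the mainly C-to-U class were 1.11% A-to-I and 0.373% C-to-U in Cytosol. Its preference was above 0 in 197 of the 265 listed genes, with a median of 0.60, against 1.55 in all listed members. The full rule for a class was met in Cytosol by 53 of the 76 mainly A-to-I and 0 of the 265 mainly C-to-U genes. The difference between the classes in these shares was not tested. A test needs 10 edited reads summed over both editors and both libraries, so genes tested are not all members. DESeq2 called 32 and 8 in the direction of the class (against 7.87% and 0.316% of all genes it gave an adjusted p). Secretory and endoplasmic reticulum genes, which leaned to C-to-U in siNC, leaned to A-to-I in 21 and to C-to-U in 4 of 32 tested in Cytosol. For ribosomal protein genes it was 59 and 3 of 63, against 26.4% and 16.1% of all tested genes.

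SRP9 leaned to C-to-U in Cytosol as in siNC, with 0.325% and 0.139% A-to-I against 1.68% and 1.37% C-to-U (log2 ratio -4.64 ± 0.35, adjusted p = 3.6e-37, edgeR). ARL6IP1 and HIGD1A also leaned that way relative to the typical gene (-1.68 ± 0.27 and -1.49 ± 0.44; adjusted p = 7.1e-09 and 0.0024, edgeR), a direction that turned on the scores themselves (0.26 and 0.42). The other 7 of the 10 highest mainly C-to-U genes did not pass. CD99 had 0.273% and 0.239% A-to-I and no C-to-U edited read in Cytosol, where its C-to-U mark in siNC had been 13.6% and 11.3%. B2M had 0.266% and 0.335% A-to-I, against 0 and 0.544% C-to-U.

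Among the 10 highest mainly A-to-I genes, RPS27 had 11.8% and 11.7% A-to-I in Cytosol and no C-to-U edited read. MRI1 had 4.97% A-to-I in each library, against 0.325% and 0.165% C-to-U (log2 ratio 2.48 ± 0.54, adjusted p = 3.3e-05, edgeR). TPD52L2, PLCXD1 and EPHX1 also leaned to A-to-I (2.63 ± 0.53, 2.51 ± 0.50 and 2.59 ± 0.88; adjusted p from 4.5e-06 to 0.0098, edgeR). MRPS9, OSGEP and XRCC2 did not pass, and ATP5MPL and CCDC12 had too few edited reads for the test. ATP5MPL had 0.340% and 0.0794% A-to-I in Cytosol, MRPS9 0.213% and 0.662%, CCDC12 0.189% and 0.570%, and OSGEP 0.753% and 0.551%, all far below their siNC scores. In Sorted-Pbodies these 4 genes had A-to-I scores between 1.502% and 5.46%. In 12 of the 76 listed mainly A-to-I genes the summed Cytosol A-to-I score was below 1%. The cause was not tested, and the positions counted as edited in each table are unknown from the sources used here.

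**Figure D5:**
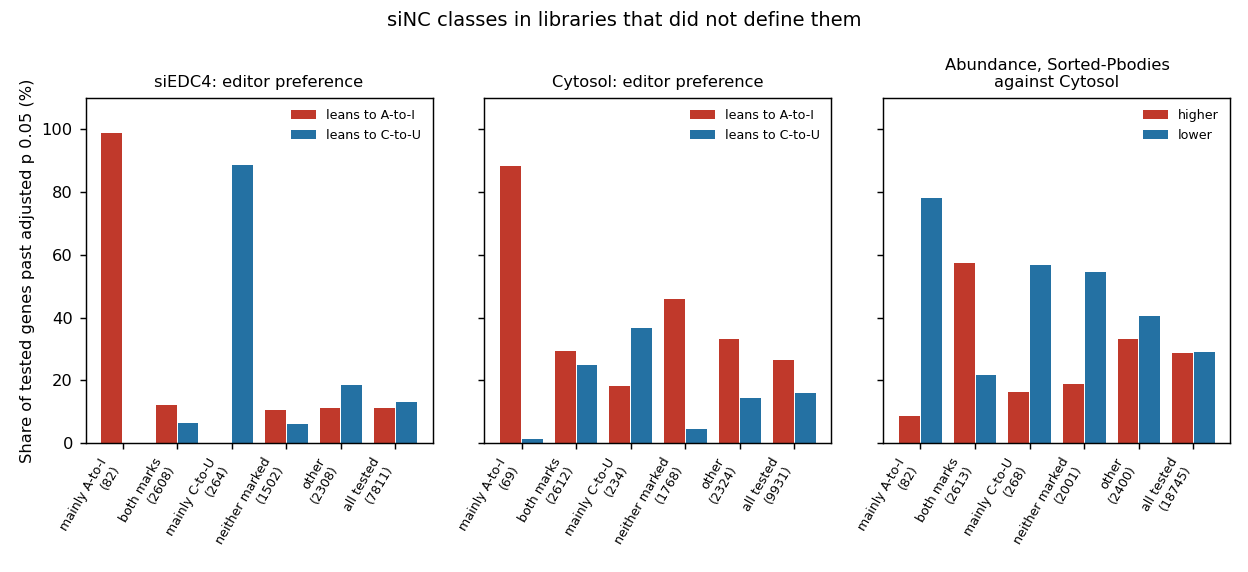
Bars give the share of tested genes (percent, numbers tested in brackets) that passed an adjusted p of 0.05 in each siNC class, for editor preference in siEDC4 (left), for editor preference in Cytosol (middle) and for abundance in Sorted-Pbodies against Cytosol (right). In siEDC4 81 of 82 mainly A-to-I genes lean to A-to-I and 234 of 264 mainly C-to-U genes to C-to-U; in Cytosol it is 61 of 69 and 86 of 234; at right, genes with both marks are the class with more genes higher than lower in Sorted-Pbodies.

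The difference of preference between Sorted-Pbodies and Cytosol was tested as the interaction of editor and fraction. Of 10788 genes tested, 2.12% leaned more to A-to-I and 4.88% more to C-to-U in Sorted-Pbodies (edgeR, adjusted p under 0.05). Of the mainly A-to-I genes, 1 leaned more to A-to-I and 8 more to C-to-U of 76 tested. Of the genes with both marks it was 96 and 212 of 2613, and of the mainly C-to-U genes 16 and 19 of 261. These counts rest on scaling and on single libraries. With column totals as the scale the calls over all genes became 1269 and 327, with the median gene at 0.61 in place of 0.07, and without Sorted-Pbodies 1 they became 15 and 88. DST leaned more to A-to-I under each of these settings, with 3.58% and 3.65% A-to-I against 0.531% and 0.696% C-to-U in Sorted-Pbodies, and 3.40% and 3.37% against 1.19% and 1.39% in Cytosol (log2 difference 2.13 ± 0.27, adjusted p = 8.5e-08, edgeR).

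Abundance was a readout that the classes did not use, and it differed between them. Of 18745 genes tested on gene counts, 28.8% were higher and 29% lower in Sorted-Pbodies than in Cytosol (edgeR, adjusted p under 0.05), and of the 7364 members 2725 were higher and 2844 lower. Genes with both marks were higher in 1503 and lower in 567 of 2613 (57.5% and 21.7%), with a median log2 fold change of 0.48. Mainly A-to-I genes were higher in 7 and lower in 64 of 82 (8.54% and 78.0%, median -0.77). Mainly C-to-U genes were higher in 44 and lower in 152 of 268 (16.4% and 56.7%, median -0.45), and genes with neither mark in 378 and 1090 of 2001 (median -0.36). Cytosolic ribosomal protein genes, 19 of the 82 in that class, were lower in 76 of 79. Fraction, RNA type and library input go together in this contrast and cannot be told apart.

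LYSMD3, KLHL15 and ZFP1, with high scores for both editors, were higher in Sorted-Pbodies, at log2 fold changes of 2.16 ± 0.18, 1.84 ± 0.12 and 1.73 ± 0.12 (adjusted p from 3.6e-06 to 1.1e-05, edgeR). ZNF367 and PRRC1 were also higher (1.07 ± 0.11 and 0.67 ± 0.11; adjusted p = 3.8e-05 and 0.00061, edgeR). TMEM230, a protein of trafficking vesicles with 8.06% and 7.13% A-to-I against 8.42% and 9.48% C-to-U in siNC, was lower (-1.86 ± 0.11, adjusted p = 2.8e-06, edgeR). Of the 10 highest genes with both marks, 5 were higher and 4 lower, with ATP6V0E2, TSPAN17 and AKIRIN1 lower beside TMEM230 (-0.74, -0.32 and -0.32; adjusted p from 0.00083 to 0.022, edgeR). High scores for both editors thus did not go with a higher level in each gene. Among the single-editor genes, TPP1, B2M and CD99 were lower by 2.02, 1.72 and 1.57 on the log2 scale, and TPD52L2 and ATP5MPL by 1.34 and 1.26 (adjusted p from 4e-06 to 2.2e-05, edgeR). MRPS9 was the exception among the 10 highest mainly A-to-I genes that passed, at 0.57 ± 0.10 (adjusted p = 0.0011, edgeR).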

How the data were processed

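The authors deposited, per the file headers, edited reads, reads and an editing score for each gene, editor and library, and gene counts with a Length column for Sorted-Pbodies and Cytosol. The deposited counts are raw whole numbers. The reads the authors deposited were treated as estimated counts: 12 broken lines of ANK2, left out here, are not whole numbers, and every value used was whole. The deposited score is a fraction equal to edited reads over reads within 5.0e-08. Length was entered as a score, the exonic bases per gene, per the file headers. Tools named in the submitters' processing notes are STAR 2.7.9a, featureCounts 2.0.1, cutadapt 1.18 and FastQC 0.11.9, with the hg38 build. The annotation, the use of strand, the treatment of multiply matching reads and the calling of edited sites are unknown from the sources used here, so overlapping genes and near-identical copies are uncertain. A score of 0 is a listed 0.

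Members, classes, gene lists and tests were chosen with earlier results of these data known. Named genes were the 10 highest of each class, DDX6, LSM14A, DCP1A, EDC4, the 3 longest, the 3 shortest and those at the read threshold. A count of 0 was given an upper limit of 3 reads over the reads; intervals are exact (Clopper-Pearson) at 95%. Transcript features came from GENCODE v29 (basic set, the transcript with the longest coding part), found for 7363 members, of which 7361 members are protein coding. The result of the blood marker list in siNC is not reported here.

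Editor preference was tested with edgeR 4.0.16 (R 4.3.3): A-to-I against C-to-U edited reads with the library as a block, TMM scaling, genes with at least 10 edited reads, quasi-likelihood test, Benjamini-Hochberg adjustment and a threshold of 0.05. Abundance used filterByExpr and the same test. The SE is the estimate over the square root of F, so it restates the test. DESeq2 1.42.0 was an alternative. The scripts were tested on simulated data. The labels give a batch number equal to the replicate number, which pairs the libraries; deviations of same-numbered libraries correlated at 0.0356 (log2 CPM) and 0.0192 (preference). Figures and descriptions used Python 3.11.15.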

Additional observations from a re-analysis of the deposited data

Results flagged for a closer look

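For 7 of the 40 named genes tested, the editor preference differed between Sorted-Pbodies and Cytosol by the interaction test (edgeR, adjusted p under 0.05). Of all 10788 genes tested, 2.12% leaned more to A-to-I and 4.88% more to C-to-U in Sorted-Pbodies. The log2 differences were 2.13 for DST, 1.24 for SRP9, 0.81 for NFIA, 0.53 for KLHL15, -1.06 for DDX6, -1.64 for LSM14A and -3.21 for TMEM230. DDX6 had 12.1% and 13.5% A-to-I against 4.83% and 6.38% C-to-U in Sorted-Pbodies, and 5.49% and 5.56% against 0.721% and 0.456% in Cytosol. TMEM230 had 7.07% and 9.90% A-to-I against 6.03% and 5.88% C-to-U in Sorted-Pbodies, and 3.97% and 4.16% against 0.140% and 0.180% in Cytosol. Without Sorted-Pbodies 1 the direction held in all 7 and DST alone passed (2.02). KLHL15 (adjusted p = 0.0497) and SRP9 (adjusted p = 0.0495) lay at the threshold, and KLHL15 (0.54) did not pass with the replicate block.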

How the results depend on the processing

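Class counts followed their thresholds. At 500 reads there were 1310 genes with both marks, 146 mainly C-to-U and 951 neither; with a mark at 0.5%, 4128 both and 858 neither; at 2%, 929 and 4090. A preference threshold of 1 gave 246 mainly A-to-I and 1223 mainly C-to-U, and of 3 gave 17 and 37. A pseudocount of 0.1 gave 131 and 519, and of 1 gave 35 and 112. Leaving out a siNC library gave 137 to 142 and 529 to 545. Correlations of Length with A-to-I and C-to-U were 0.135 and 0.060 at 100 reads and 0.300 and 0.238 at 500 reads. At 500 reads the editors' correlation was 0.447 and that of Length and preference 0.025. Leaving out a siNC library gave 0.398 to 0.402 for the editors, 0.167 to 0.197 for Length with A-to-I, 0.109 to 0.122 with C-to-U and 0.038 to 0.061 with preference. Length with C-to-U was 0.134 with reads fixed and 0.145 by Pearson, which gave 0.429 for the editors and 0.038 for preference; a pseudocount of 0.1 gave 0.080. Settings added after the data were seen were transcript length (0.338 and 0.260), G+C fixed (0.373 for the editors; 0.143, 0.012 and 0.121 for Length) and the classes without ribosomal proteins, which moved no class count by 1.5 times.

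On uncentred scores 6817 genes leaned to A-to-I and 66 to C-to-U in Cytosol (14 of the mainly C-to-U class), and 196 and 593 in siEDC4; this turned ZNF367 (1.33), ZFP1 (1.16), PRRC1 (1.11), TPD52 (1.39), HIGD1A (0.42), ARL6IP1 (0.26), HMGA2 (1.26), NFIA (0.07) and DST (1.38) in Cytosol. With no call on either scale, MRPS9 (0.52), COQ7 (0.64), SDCBP (0.90), B2M (0.24) and TPP1 (0.45) in Cytosol and ATP6V0E2 (-0.44), KLHL15 (-0.29), LYSMD3 (-0.18), TMEM230 (-0.15) and LSM14A (-0.08) in siEDC4 also turned. Column totals moved the split to 1965 and 2142 in Cytosol and 746 and 1228 in siEDC4. DESeq2 called 448 and 18 in Cytosol (32 mainly A-to-I, 8 mainly C-to-U) and 153 and 109 in siEDC4 (78 mainly C-to-U); the cause was not tested. For the difference of preference, column totals gave 1269 and 327 and DESeq2 42 and 191. Leaving out a library gave 15 to 198 and 88 to 465 (39 and 329 without Sorted-Pbodies 2). XRCC2, which did not pass in abundance, was at -0.18 without Sorted-Pbodies 2. With the replicate block the difference gave 209 and 556 and abundance 5520 and 5622; among named genes the block ended the calls of KLHL15 (difference, 0.54) and DDX6 (abundance, 0.34) and no others. Without the library block, CXorf56 (1.16), PRRC1 (0.70) and HMGA2 (-0.92) lost their calls in siEDC4, and ZFP1 (-0.75) and B2M (-1.81) gained one in Cytosol. Leaving out a library of the Cytosol or siEDC4 preference tests leaves no residual degrees of freedom. Over the tested results of named genes, 927 of 1101 alternatives kept direction and call, 79 lost the call, 35 gained one, 10 turned in direction with a call in 1 or both settings, and 50 turned with no call in either; DESeq2 gave no adjusted p in 25 more.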
